A study of Mus musculus with 8 samples.

Results

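The regions described here are 5907 stretches of open chromatin that were far more accessible in nuclei with a microglial RNA profile than in all other nuclei of the mouse hippocampus. They were chosen by a rule on the measured values. Merging the overlapping ATAC peaks of the 4 libraries gave 253748 regions, and 154785 of them (shared regions) held a peak from every library. A member had at least 50 cuts, the sites where the transposase opened the DNA, in the microglial group. It also had to reach at least 4 times the accessibility of the rest in the pooled MF libraries and again in the pooled HF libraries, in depth-scaled counts (CPM) with 1 cut added. Of the shared regions, 32492 had 50 group cuts, 6451 of these reached the ratio in MF and 6272 in HF, and 5907 did so in both, 3.82% of the shared regions. Since the rule used the contrast of group and rest, the values of that contrast are given as a description, without a test.

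The libraries came from hippocampi of wild-type C57BL/6J male pups at postnatal day 21, profiled with a single-nucleus multiome assay that reads RNA (GEX) and accessibility (ATAC) from the same nucleus. Their mothers, 8 weeks old at assignment per the labels, ate a diet with folic acid (FA) at 2 mg/kg (MF) or 20 mg/kg (HF), begun before mating and kept through pregnancy and lactation. Each diet had 2 libraries, named MF1, MF2, HF1 and HF2. The number of pups and litters behind a library was not stated, so the spread between libraries may be partly technical, and only males were studied. Depth was 79982157 to 113105243 cuts and 39223075 to 47460174 UMIs (RNA molecules) per library.

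Microglia are the resident macrophages of the brain. They survey the tissue, clear dying cells and prune synapses, and they depend on signalling through the receptor CSF1R. Their chromatin is shaped by PU.1, the product of Spi1, an ETS family factor that opens enhancers of the myeloid lineage together with RUNX, IRF, MAF, MEF2 and C/EBP factors, while SALL1 and signalling by TGF-beta keep the microglial identity in the brain. PU.1 binds purine-rich elements of the form GAGGAAGT.

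Sequences of 6 members are shown, 5 of them with the PU.1 letters that were more frequent in members than in other regions, and 1 without. Each is the central 300 bp of the region on the + strand of GRCm38 (mm10). Capitals mark matches to the PU.1 letters, here written as ACTTCCTC because the match lies on the other strand, and to the RUNX (TGTGGTT) and MAF (TGCTGAC or its reverse complement) letters. The first 5 are the members of the listed genes with a PU.1 match, no UTR in the window and the largest ratio, with 1 for each gene. The sixth, upstream of Tyrobp, holds none of these matches.
Fli1, promoter of an annotated transcript, chr9:32508665-32508964: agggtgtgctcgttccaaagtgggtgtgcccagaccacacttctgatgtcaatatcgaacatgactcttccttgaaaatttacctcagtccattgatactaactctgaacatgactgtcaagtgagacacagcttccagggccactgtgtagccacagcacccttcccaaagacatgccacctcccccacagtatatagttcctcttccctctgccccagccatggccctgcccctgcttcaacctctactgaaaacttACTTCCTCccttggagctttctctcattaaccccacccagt
Cx3cr1, intron, chr9:120058783-120059082: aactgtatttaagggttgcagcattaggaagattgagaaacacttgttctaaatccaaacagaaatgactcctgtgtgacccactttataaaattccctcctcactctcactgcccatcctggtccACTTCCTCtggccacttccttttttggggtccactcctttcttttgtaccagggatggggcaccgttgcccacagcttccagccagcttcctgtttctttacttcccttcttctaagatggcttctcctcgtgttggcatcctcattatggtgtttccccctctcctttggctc
Slco2b1, intron, chr7:99674942-99675241: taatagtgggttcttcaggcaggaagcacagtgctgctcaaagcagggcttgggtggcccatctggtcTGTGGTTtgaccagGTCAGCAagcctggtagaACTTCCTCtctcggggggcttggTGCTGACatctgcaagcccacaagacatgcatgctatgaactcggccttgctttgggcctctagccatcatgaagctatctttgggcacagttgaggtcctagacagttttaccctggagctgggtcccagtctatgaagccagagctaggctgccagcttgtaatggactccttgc
Dock8, intron, chr19:25052326-25052625: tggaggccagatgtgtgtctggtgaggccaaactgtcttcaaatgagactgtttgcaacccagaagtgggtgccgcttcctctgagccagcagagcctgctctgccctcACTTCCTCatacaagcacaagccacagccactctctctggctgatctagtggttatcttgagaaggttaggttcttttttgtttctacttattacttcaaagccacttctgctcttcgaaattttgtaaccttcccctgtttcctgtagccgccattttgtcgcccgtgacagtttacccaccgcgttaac
Plcg2, intron, chr8:117542918-117543217: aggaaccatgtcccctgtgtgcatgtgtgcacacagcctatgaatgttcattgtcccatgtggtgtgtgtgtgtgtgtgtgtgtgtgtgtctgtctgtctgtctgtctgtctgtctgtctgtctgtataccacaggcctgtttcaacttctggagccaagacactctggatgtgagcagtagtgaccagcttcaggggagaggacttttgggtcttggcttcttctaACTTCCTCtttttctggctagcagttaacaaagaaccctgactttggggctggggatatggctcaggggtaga
Tyrobp, promoter, chr7:30412652-30412951: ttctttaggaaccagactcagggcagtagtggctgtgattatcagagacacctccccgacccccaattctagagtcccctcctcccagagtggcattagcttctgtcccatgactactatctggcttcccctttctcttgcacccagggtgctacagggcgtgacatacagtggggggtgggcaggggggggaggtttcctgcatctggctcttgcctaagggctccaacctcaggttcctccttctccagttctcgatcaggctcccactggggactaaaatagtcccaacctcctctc
In the Slco2b1 intron, a RUNX match at bases 69 to 75, a MAF match at 83 to 89, the PU.1 match at 101 to 108 and a further MAF match at 124 to 130 lay within one stretch. Slco2b1 encodes an organic anion transporter. This region had 92.9, 94.6, 109 and 97.3 CPM in the group's nuclei of MF1, MF2, HF1 and HF2, against 1.99 to 2.77 CPM in the rest. The Cx3cr1 intron, in the gene of the fractalkine receptor, had 58.7, 31.8, 45.4 and 34.1 CPM against 0.677 to 1.12. The Tyrobp region, without a match, had 59.3, 42.6, 61.7 and 63.2 CPM against 0.789 to 1.39.

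The microglial group was made of nuclei with at least 3 of the 8 genes Csf1r, C1qa, C1qb, C1qc, Inpp5d, Ikzf1, Siglech and Ly86 detected and at most 1 UMI in all of the excitatory neuron gene Slc17a7, the inhibitory neuron gene Gad2, the oligodendrocyte gene Mog and the astrocyte gene Aqp4. It held 1075 of 14297 barcodes (7.52%), made up of 324 of 3510 from MF1, 200 of 2965 from MF2, 306 of 4241 from HF1 and 245 of 3581 from HF2. No doublet caller was run. Of all barcodes, 111 occurred in 2 or more libraries, and 1 of them was in the group of more than 1 library. Group nuclei were shallower than the rest, with median UMIs of 1563 to 2100 per library against 6900 to 8759 and median cuts of 11245 to 15766 against 16267 to 25924. The label held against 12 microglial markers the rule did not use, which were all higher in the group. The purinergic receptor gene P2ry12 was detected in 91.4% of group nuclei and 26.3% of the rest, the fractalkine receptor gene Cx3cr1 in 81.5% against 11.6% and Tmem119 in 52.0% against 2.41%. The rest was deeper and held 512 barcodes with 3 or more of the 8 markers, so its shares are not a measure of background alone.

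Markers of other cells were checked in the group. All 6 border macrophage markers (Mrc1, F13a1, Cd163, Lyve1, Pf4, Ms4a7) were higher in the group, with summed levels of 229.7, 278.9, 333.4 and 357.8 CPM in MF1, MF2, HF1 and HF2 against 2.08 to 6.93 in the rest, and Mrc1 was detected in 10.8% of group nuclei. In 27 group nuclei at least 3 of the 6 were detected, namely 4, 5, 9 and 9 in the same order of libraries (1.235, 2.50, 2.94 and 3.67% of the group). These nuclei had a median of 17.8% of their cuts in members, against 22.6% for the 956 group nuclei with none. Both sets belong to the group whose cuts chose the members, so these shares are a description only. Of 6 lymphocyte and neutrophil markers, 4 (Cd3e, Cd79a, Ms4a1, S100a9) had no UMI in the group. The 6 excitatory neuron markers summed to 909 to 1271 CPM in the group and 1507 to 2072 in the rest, and 4 of them were detected in at least 10% of group nuclei. Of the vascular and leptomeningeal markers 5 of 9 were higher in the group, summing to 25.3, 47.1, 87.5 and 26.4 CPM in MF1, MF2, HF1 and HF2 against 15.6 to 38.4 in the rest, with Cldn5 at 0. Progenitor markers, 3 of 6 higher, summed to 393, 439, 532 and 770 CPM against 640 to 765, and astrocyte markers, 2 of 6 higher, to 202, 249, 401.5 and 270 CPM against 172 to 334. The sums of the border macrophage, progenitor and astrocyte markers were each higher in both HF libraries than in either MF library. Sums of the other lists overlapped between diets, such as that of the rule's 8 markers (14520, 9139, 11690 and 8134 CPM in MF1, MF2, HF1 and HF2). With 2 libraries a diet, a sum with no link to diet separates in this or the opposite direction with a probability of 0.333. The separation is therefore not read as a trait of these lists. Most of the progenitor sum was Tnr (290, 318.5, 392 and 595 CPM), which was detected in 71.0% of the rest. Most of the astrocyte sum was Slc1a3 (178, 209, 296 and 211 CPM). A link of these sums to diet was not tested. All 6 inhibitory neuron markers (83.4 to 106 CPM against 194 to 255) and all 6 oligodendrocyte markers (544 to 947.5 against 1545 to 2209) were lower in the group. The part of these RNAs in the members' values and in the diet comparison was not tested.

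The members' levels were read in each library, although the rule used these libraries pooled by diet and so favoured members high in all of them. The median member had 29.2, 23.2, 25.7 and 26.3 CPM in the group's nuclei (MF1, MF2, HF1, HF2), and 1.73, 1.81, 1.72 and 1.90 in the rest. Taken in single libraries, 5807 members (98.3%) reached 4 times the rest in MF1 and 5536 (93.7%) did in MF2, while 5719 (96.8%) did so for HF1 and 5689 (96.3%) for HF2. At most 2 members in any library were no higher in the group than in the rest. The smaller of the MF and HF ratios had a median of 11.6 with quartiles of 6.21 and 22.6 and reached 58.5. Members held a median of 326 group cuts, with quartiles of 217 and 471, and had a median width of 925 bp.

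**Figure D1:**
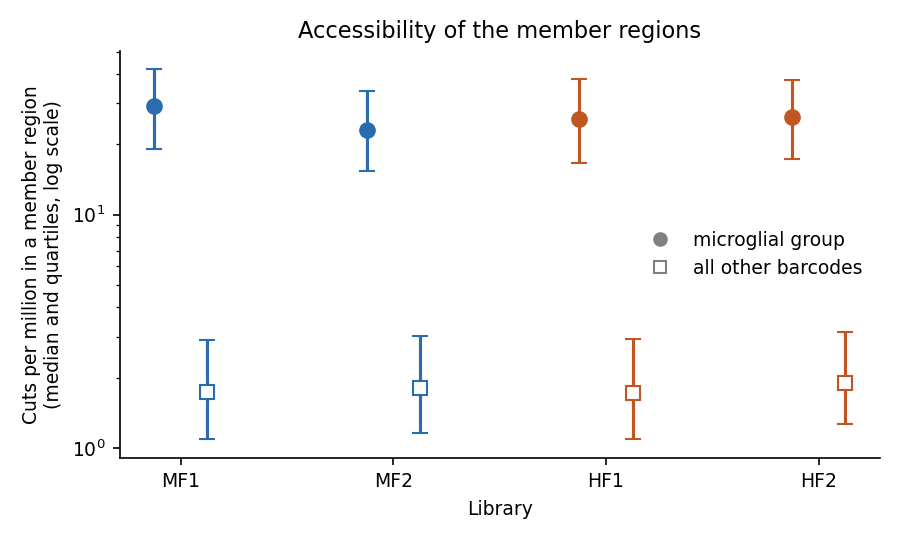
Cuts in a member region, in CPM (y axis, log scale) in each library (x axis), for the microglial group (filled circles) and all other barcodes (open squares). Points are medians over the 5907 members and bars are quartiles; the group medians lie between 23.2 and 29.2 and the rest medians between 1.72 and 1.90.

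Members held 20.8, 16.3, 18.5 and 18.1% of the group's cuts in shared regions in MF1, MF2, HF1 and HF2, and 1.61 to 1.81% of the cuts of the rest. The share followed the markers in a step, which the rule favours, since cuts of nuclei with 3 or more markers chose the members. Nuclei with 0, 1 or 2 of the 8 markers and at most 1 excluded UMI had medians of 1.432, 1.392 and 1.396% of their cuts in members. The 28 nuclei with exactly 3 markers spread widely, from a lower quartile of 1.26 to an upper quartile of 21.8% with a median of 5.25%. With 4, 5, 6, 7 and 8 markers the medians were 21.9, 21.5, 22.1, 22.6 and 22.8%. Among other nuclei, the 6049 excitatory neurons had a median of 1.24%, the 601 inhibitory neurons 1.81%, the 1246 astrocytes 1.78%, the 852 oligodendrocyte progenitors 1.43% and the 1518 oligodendrocytes 1.69%. The 60 nuclei with vascular and leptomeningeal markers stood above these at 4.34%. The 512 barcodes with 3 or more microglial markers but more than 1 excluded UMI had a median of 4.496%, at a median of 55879.5 cuts each. By the rule these barcodes belonged to the rest, so their cuts count in its level.

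**Figure D2:**
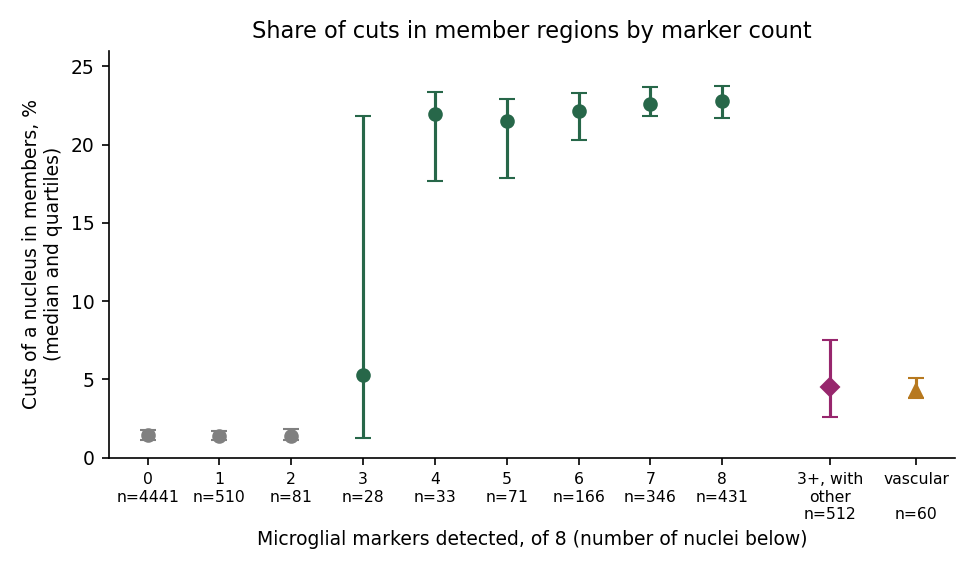
Percent of a nucleus's cuts that fell in member regions (y axis) by the number of the 8 microglial markers detected (x axis), with quartiles as bars. Grey and green circles are nuclei with at most 1 UMI of the excluded genes, the diamond is the 512 barcodes with 3 or more markers and more excluded UMIs, and the triangle is the 60 vascular nuclei. The medians step from 1.396% at 2 markers to 21.9% at 4, which the rule favours, since the green nuclei's cuts chose the members.

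The step was not clean at either edge. In the group, 23 nuclei (2.14%) had under 5% of their cuts in members, 14 of them with exactly 3 markers, and they held 6.35% of the group's cuts. In MF2, 6 such nuclei held 11.4% of the cuts. Without them the share of cuts in members was 21.4, 18.1, 19.7 and 18.6% in the libraries in the order above. In the rest, 103 barcodes (0.779%) reached the group's 5th percentile of 8.91%, of which 85 had 3 or more markers, 13 had 1 or 2 and 5 had 0. This split of nuclei was added after the values were seen.

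Most members also stood above each neuronal and glial class taken by itself. The group's level was at least 4 times that of excitatory neurons in 98.5% of members, of inhibitory neurons in 90.0%, of oligodendrocyte progenitors in 92.1%, of oligodendrocytes in 91.8% and of astrocytes in 88.0%. Against the 60 vascular and leptomeningeal nuclei it was so in 65.1%, and 381 members had a higher value there. That class held only 528078 cuts in shared regions, so that the 1 added cut alone gave 1.89 CPM, the level of its median member, and single members cannot be compared with it at this depth. In the other classes, 22 members were more open in astrocytes, 9 in progenitors and 1 in oligodendrocytes. An intergenic member near Egfr, the epidermal growth factor receptor gene, had 20.6 CPM in astrocytes and 13.3 in the group. A member near Cd9, a tetraspanin gene, had 21.8 CPM in progenitors and 12.47 in the group. The rule compared the group with all other nuclei pooled, of which excitatory neurons were the most numerous class.

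By position, members overlapped promoters less often than non-members with 50 or more group cuts, but not less often than all shared regions. A promoter, taken as 1000 bp before to 100 bp after a transcript start, was overlapped by 854 members (14.5%). Each other member was counted once, as exon if it overlapped one, else as intron if it overlapped a gene, else as intergenic. These classes held 11.0, 42.5 and 32.03% of members. Among all shared regions the promoter share was 12.98%, but among the 26585 regions with 50 or more group cuts that were not members it was 46.9%. The median distance to the nearest start of a coding gene was 18062 bp for members, 35455 bp for all shared regions and 3104 bp for those non-members. GC content of the central 300 bp had medians of 51, 48 and 57%, in the same order. Repeat-masked sequence made up a mean of 11.9% of the central 300 bp in members and 11.8% in all shared regions. The promoter share was 18.45% of the 2119 members with ratios of 4 to 8, 11.0% of the 1661 with ratios of 16 to 32 and 13.4% of the 597 at 32 or more.

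The letters of PU.1 were more frequent in the members. GAGGAAGT, on either strand, lay in the central 300 bp of 823 of the 5901 members with a reference sequence (13.95%), against 2.28% of all 154764 shared regions with one and 2.60% of the non-members with 50 or more group cuts. Restricted to regions outside promoters the shares were 14.1% and 2.25%. The shorter ETS core GGAAGT, which every PU.1 match contains, was in 46.6% against 18.45%. The composite GGAANNGAA, bound by ETS and IRF factors together, was in 16.6% against 9.09%. MAF letters (TGCTGAC) were in 10.5% against 5.77%, RUNX letters (TGTGGTT) in 9.76% against 6.30% and IRF letters (GAAANNGAA) in 13.4% against 10.0%. The letters for MEF2 (CTAAAAATA, 1.32% against 1.19%), C/EBP (TTGCNNAA, 14.6% against 14.5%) and SP/KLF (GGGCGG, 13.6% against 13.3%) were about as frequent in both, and AP-1 letters (TGANTCA) were in 12.7% against 14.0%. Outside promoters, however, SP/KLF letters were in 10.2% of members against 7.38% of shared regions. Letters of factors of other lineages were rarer in members. The neuronal E-box CAGATGG was in 9.12% against 17.98%, RFX letters (GTTGCCNNG) in 3.73% against 4.88% and SOX letters (AACAATGG) in 0.898% against 1.16%. These are matches of letters, not bound sites, and regions with no match may hold other forms of the same elements.

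PU.1 matches were more frequent at larger ratios and near the centre. They were in 7.51% of members with ratios of 4 to 8, 13.7% at 8 to 16, 19.9% at 16 to 32 and 20.7% at 32 or more, and the ETS core was in 34.4, 45.8, 58.7 and 58.7% of the same classes. In bins of 50 bp, members had 34.91 and 32.03 matches per 1000 regions on either side of the centre, against 4.40 and 4.30 in all shared regions. At 450 to 500 bp from the centre members had 2.37 and 3.22 per 1000, about the level of all regions (3.14 and 2.71). An ETS core together with RUNX, IRF, MAF or C/EBP letters was in 18.8% of members and 5.91% of all shared regions. In 1619 members (27.4%) none of the PU.1, ETS, ETS-IRF, RUNX, IRF, MAF and C/EBP letters was found, against 50.9% of shared regions.

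**Figure D3:**
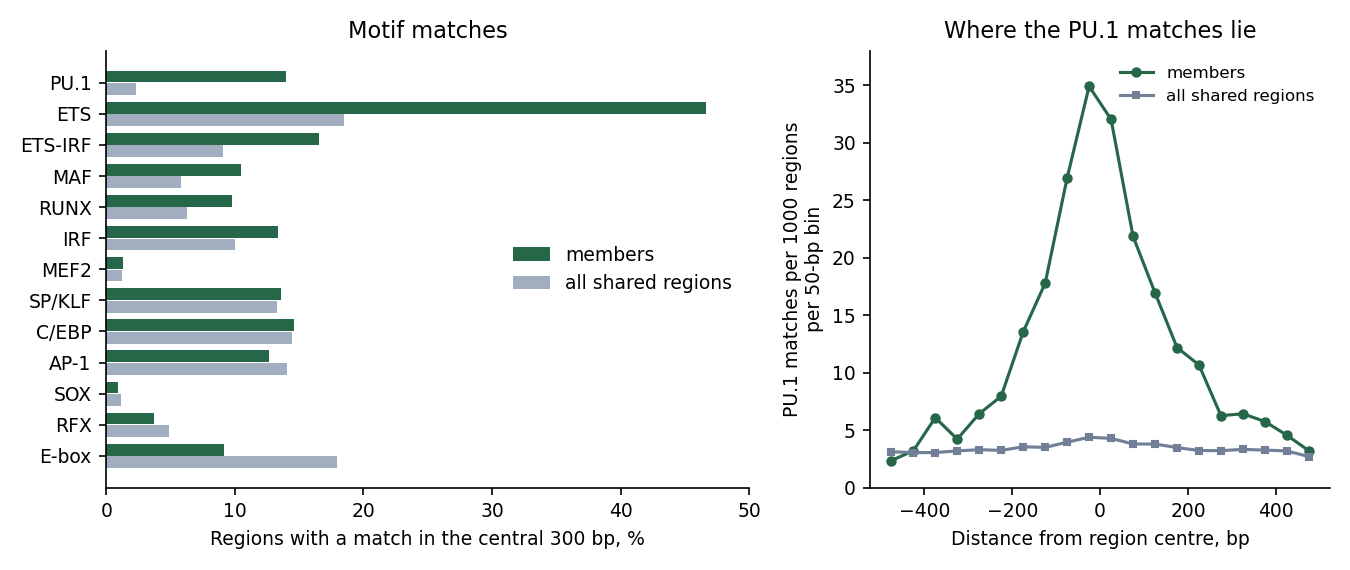
Left, percent of regions (x axis) with a match in the central 300 bp for each motif (y axis), in members (green) and all shared regions (grey); PU.1 stands at 13.95% against 2.28%. Right, PU.1 matches per 1000 regions in bins of 50 bp (y axis) by distance from the region centre in bp (x axis), which peak at 34.9 in members and stay at or below 4.40 in all shared regions.

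Members were unevenly spread over genes. Of 17307 coding genes with a shared region, 2364 (13.7%) held a member in the gene or the 5 kb before it, 112 held 5 or more and 7 held 10 or more. The highest count, 29 of 571 shared regions, fell to Gm20388, a read-through annotation of 4435 kb that spans many genes and names no single locus. Next were Chn2 (11 of 34), Itgb5 (11 of 22), Zfhx3 (11 of 55), Etv6 (10 of 30), Frmd4a (10 of 73), Rad51b (10 of 56) and, with 9 each, Cdh23, Chd9, Fgfr2, Med12l and Rbm47. The annotation of Fgfr2 covers 2961 kb with 306 shared regions and spans other genes, and Cdh23 contains Vsir, which has 5 members of its own, so their members cannot be assigned to these genes alone. Itgb5 encodes an integrin subunit, Etv6 an ETS repressor and Chn2 a Rac GTPase-activating protein. Med12l, a Mediator subunit gene, spans the P2ry12 locus, so that its members are partly those of P2ry12. Joined across gaps of up to 10 kb, a step and a distance chosen after the values were seen (a wider gap joins more), the members formed 4373 loci, of which 3353 held a single member and 324 held 3 or more (19.7% of members). Among the loci with the most members were those that overlapped Adap2 and Rnf135 (8 members in 38.7 kb of chromosome 11), the phosphatase gene Inpp5d (8 in 40.2 kb), the TNF receptor gene Tnfrsf1b (7 in 26.2 kb) and Abi3 with its neighbours Gngt2, Phospho1 and Zfp652 (6 in 16.2 kb). A locus of 7 members on chromosome 17 and another on chromosome 7 overlapped no coding gene.

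Of the surface receptor and homeostatic genes, 17 of 19 had a member, with 61 members among 119 shared regions. Values given for a listed gene are those of its member with the most group cuts. The rule's 8 markers are spread over the lists: Csf1r, Siglech, C1qa, C1qb, C1qc, Ikzf1, Inpp5d and Ly86. Their RNA chose the nuclei whose cuts chose the members, so the rule favours members at these genes. The intron of Csf1r, the receptor microglia need to survive, had 113, 111, 131 and 110 CPM in the group's nuclei of MF1, MF2, HF1 and HF2, at ratios of 15.7 in MF and 16.8 in HF. P2ry12, which steers microglial processes toward ATP, had 7 members, 3 at promoters, and 66.5, 64.6, 47.6 and 62.5 CPM at the strongest. Cx3cr1 had 8 members among 23, the strongest at 84.7, 68.3, 70.8 and 61.8 CPM. The annotation of Cx3cr1 spans 168.3 kb and takes in other genes, and the nearest coding start to the strongest region is that of Xirp1. The Cd33 promoter, of a sialic acid receptor, had ratios of 48.6 and 43.6, and the promoter of Fcrls, an Fc receptor-like gene, 39.0 and 52.4. Tgfbr2, a receptor for TGF-beta, had 7 members, the strongest an intron with ratios of 37.9 and 39.1. At each of these regions the group's level in every library was above the rest's level in any library.

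In the complement list 6 of 10 genes had a member, with 10 members among 24 shared regions. The neighbouring genes C1qa, C1qb and C1qc encode the chains of C1q, which starts the classical pathway and tags synapses. Their promoters were all members, which the rule favours, since these genes are among its markers. They held 1, 1 and 2 of the list's members. C1qb had 95.1, 82.2, 99.92 and 109 CPM at ratios of 43.2 and 54.25, C1qc 86.3, 63.96, 91.2 and 84.5 CPM, and C1qa 74.4, 54.7, 71.4 and 61.1 CPM. C5ar1, a receptor gene for a complement fragment, had an intronic member at ratios of 43.2 and 36.7. Itgb2, the shared subunit of the CR3 and CR4 receptors, had 3 members.

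Transcription factor genes had a member in 14 of 18 cases, with 49 members among 128 shared regions. An intron of Spi1, the PU.1 gene, had 72.8, 61.8, 82.7 and 78.1 CPM at ratios of 35.2 and 38.3. A promoter of Runx1 reached ratios of 57.0 and 42.3 with 57.7, 42.0, 56.7 and 54.3 CPM. Fli1, an ETS factor gene, had 8 members among 12, the strongest at ratios of 49.3 and 46.7. An intron of Sall1 had 119, 91.8, 107 and 107 CPM but modest ratios of 6.18 and 4.91, since the rest had 16.3 to 24.0 CPM there. Mef2a, whose product acts in neurons and microglia alike, stood at the edge with ratios of 4.203 and 4.013.

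Among genes of signalling and the cytoskeleton, 21 of 24 had a member, with 79 members among 288 shared regions. Inpp5d, the SHIP1 phosphatase gene that acts below TREM2 and is one of the rule's markers, had 8 members among 13. Ptpn6, the SHP-1 phosphatase gene, had an intronic member at ratios of 56.15 and 39.8 with 59.0, 63.96, 52.0 and 62.1 CPM. Vav1, a guanine nucleotide exchange factor gene, had an intronic member at ratios of 50.2 and 40.3. Promoters of Plcg2, Lyn and Prkcd had smaller ratios, 6.33 to 9.43 across both diets. Ptprc, the CD45 gene and a pan-leukocyte marker, had a single weak member of 118 group cuts, at ratios of 5.87 and 5.04, although its RNA stood at 346 CPM in the group and 3.20 in the rest.

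Lysosome, phagocytosis and innate sensing genes had a member in 14 of 17 cases, with 35 members among 90 shared regions. Intergenic members lay by the protease genes Lgmn (ratios of 44.3 and 39.5) and Ctss (29.5 and 30.2). The promoter of Tlr4, the lipopolysaccharide receptor gene, had ratios of 41.2 and 25.6 and a PU.1 match, and that of Ly86, which encodes a partner of the Toll-like protein CD180, had 49.1 and 26.5. An intron of Bin1, an endocytosis gene expressed in several brain cell types, had a PU.1 match and 80.95, 72.0, 73.0 and 65.3 CPM at ratios of 24.7 and 21.0, while Bin1 RNA was only 3.36 times the rest. Mertk, a receptor for the uptake of dying cells, had a promoter member with 108, 98.3, 82.1 and 79.9 CPM. Over the 5 lists, 34 of 234 members (14.5%) had a PU.1 match in the central 300 bp, close to the share of all members.

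**Figure D4:**
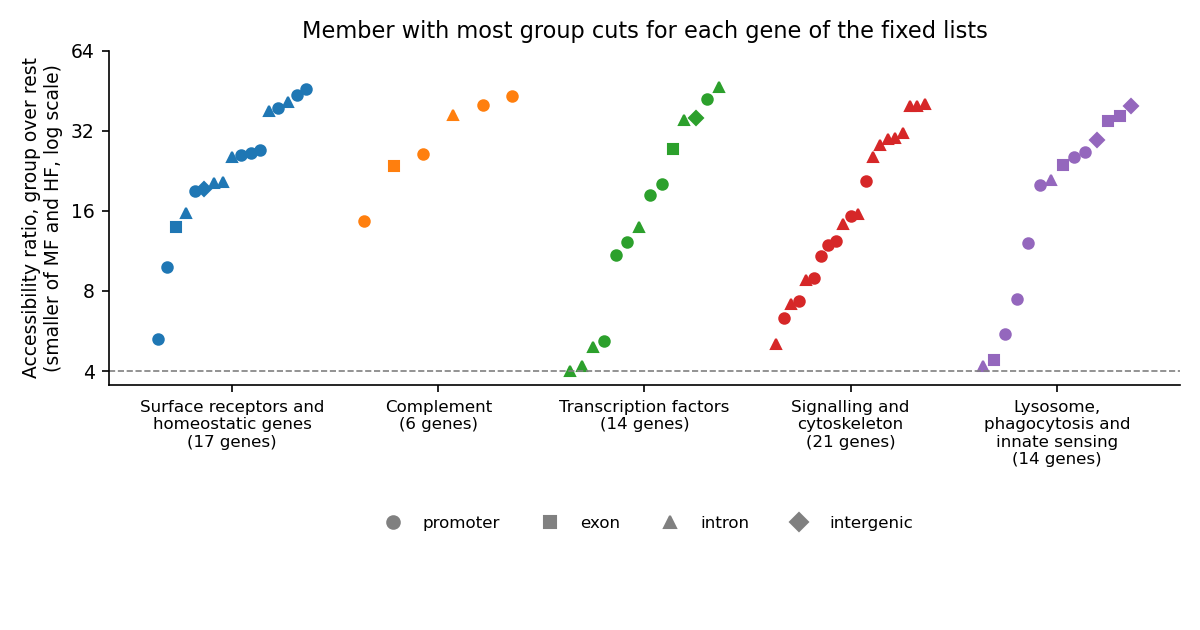
Accessibility ratio of group over rest (y axis, log scale, smaller of MF and HF) of the member with most group cuts for each gene with a member, in 5 gene lists (x axis) and ordered by ratio within a list; the shape gives the position and the dashed line the ratio of 4. Values run from 4.01 (Mef2a) to 46.7 (Fli1), and promoters occur at low and high ratios.

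Listed genes without a member fell into different kinds. Gpr34, C3ar1, Itgam, Itgax and Tlr7 had regions with high ratios that lacked a peak in 1 or more libraries. At Itgam, the CD11b gene, a region of 172 group cuts had ratios of 70.5 and 68.8 and a peak in 2 libraries. At C3ar1 a region of 190 cuts had ratios of 32.9 and 34.75 with a peak in 3 libraries, and at Gpr34 one of 141 cuts had 49.4 and 34.5 with a peak in 2. Counted over all merged regions, 685 of 40915 with a peak in 1 library passed the cuts and both ratios, 1248 of 28179 with 2 and 1360 of 29869 with 3, so the demand for a peak in each library removed regions of this kind. Other genes had open promoters that the rest shared. The promoter of Tgfbr1 had 1795 group cuts at ratios of 3.83 and 3.56, that of Cebpa 1275 cuts at 3.01 and 3.55, and that of the kinase gene Syk 384 cuts at 4.62 and 3.54. The RNA of Tgfbr1 was 33.3 times the rest and that of Syk 28.1 times.

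Genes near members had more RNA in the group, which is the same contrast of nuclei as the rule. Among 5515 members whose nearest gene had at least 20 UMIs, that gene's RNA was at least 2 times the rest for 63.3%, with a median ratio of 3.08. For all shared regions it was 21.2% with a median of 0.948, and for non-members with 50 or more group cuts 30.4%. Promoter members stood higher, at 81.2% with a median of 13.8. Per gene, the share was 43.2% for genes nearest to 1 member, 56.9% with 2, 71.0% with 3 or 4 and 87.2% with 5 or more.

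None of the 10 members with the largest ratios had a PU.1 match in the central 300 bp, against 20.7% of the 597 at 32 or more. They lay near BC147527, AF067061, Csmd3, Adam6b, Cyp4f37, Gabrr1, Ccr1 (2 members), Tnfaip3 and Agr3, and 5 of these genes had no UMI in the group. The highest, at a promoter of BC147527 (chr13:120299073-120299779), had 25.7, 27.8, 28.8 and 30.2 CPM against 0.332 to 0.555 in the rest, ratios of 67.8 and 58.5. It shares an identical run of 54 bp with the region near AF067061, and reads that fall within such a run cannot be told apart. The regions near Agr3 and Tnfaip3 share runs of 27 to 34 bp with each other and with those near BC147527 and AF067061. The remaining pairs of the 10 share at most 14 bp, so the 10 are not all independent in sequence. A member near Ccr1, a chemokine receptor gene (chr9:123931577-123932482), had 88.8, 68.9, 76.7 and 90.6 CPM against 1.39 to 1.63, and Ccr1 RNA stood at 15.25 CPM against 0.123. A member near Tnfaip3, which encodes an inhibitor of NF-kB signalling, had 43.6, 40.2, 30.7 and 47.9 CPM, with RNA at 21.95 CPM against 1.43.

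The members with the most cuts were of another kind. The top 10 held 5898 to 19728 group cuts, all others at most 5054, and their rest counts were among the highest of all shared regions too. The first (chr17:39842985-39843791, Gm26917, a lincRNA) had 2262, 997, 1790 and 1271 CPM in the group and 589, 158, 350 and 154 in the rest, where it ranked 2 of all shared regions. The second (chr17:39847796-39848651), over an annotated rRNA and the lincRNAs Gm42418 and AY036118, ranked 3. Of the 10, the annotated ones overlapped lincRNAs, an rRNA or an intron of Cdk8, and 1 lay on an unplaced scaffold. In 9 of the 10 the group level was highest in MF1, and in the same 9 so was the level of the rest. The 10 held 4.98% of the group's cuts in members, and 9 members were among the 155 shared regions with the most rest cuts. Without them, members held 19.8, 15.75, 17.7 and 17.5% of the group's cuts, compared with 20.8, 16.3, 18.5 and 18.1% with them.

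At the threshold, members just inside lay near Prkce (ratios of 4.109 in MF and 4 in HF), Lhfpl2 (4.001 and 6.316) and Ppard (5.107 and 4.001). Regions just outside lay near Pygm (4.935 and 3.999), Necap1 (3.998 and 5.895, with exactly 50 cuts) and Nid2 (3.998 and 4.5).

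Between diets, the question was whether the high maternal FA supply altered the accessibility of these regions in the microglial group. Cuts of the group's nuclei were summed per library and tested with edgeR's quasi-likelihood test over all 40349 regions that passed its count filter. All 5907 members passed it, which the demand for group cuts favours, and none was called at an adjusted p (FDR) under 0.05, nor by DESeq2. Across all regions 1 was called (0.00248%). At an unadjusted p under 0.05 by edgeR there were 130 members (2.20%; 52 higher in HF), against 1061 of all regions (2.63%). These counts moved with the libraries and nuclei used. They were 427 members (7.23%, 400 higher in HF) without MF1, against 4.53% of all regions, and 436 (7.38%, 34 higher) without MF2, against 5.98%. In nuclei passing the quality limits they were 211 (3.57%, 33 higher) against 3.48%, with a median log2 change of -0.071 and none called. The members' median log2 change, HF against MF, was -0.014 with quartiles of -0.18 and 0.15, beside -0.002 over all regions, and 2829 members had positive values. The full range was -1.19 to 1.30. Because members had to reach 4 times the rest in both diets, regions open in one diet alone could not be members. The called region, near Gpc1 (chr1:92741933-92743482), was such a case, with 60, 48, 5 and 2 cuts in MF1, MF2, HF1 and HF2 (log2 change -3.81, SE 0.52, FDR 0.0329 by edgeR). That call was lost with the peak widths as an offset (log2 change -3.48, FDR 0.128) or the replicate numbers as a block (log2 change -3.84, FDR 0.152).

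The smallest p among members lower in HF was at a promoter of a lincRNA, 13559 bp from the start of its nearest coding gene, Ptgs1, the cyclooxygenase 1 gene that microglia express. The region's levels were 97.0 (MF1), 68.9 (MF2), 45.1 (HF1) and 39.4 CPM (HF2), a log2 change of -0.97 (SE 0.20) at an edgeR p of 0.000123 and an FDR of 1. The MF and HF libraries did not overlap, which the choice of this member by p favours. Counted as fragments, 1 member was called, this one (FDR 0.0251), against 3 of 28174 regions (0.0106%). With peak widths as an offset the value was -0.65 at an FDR of 1, the peak being 776 and 808 bp wide in MF1 and MF2 and 576 and 715 bp in HF1 and HF2. Ptgs1 RNA stood at 400.5, 256, 243 and 227.5 CPM in the same order (log2 change -0.47, SE 0.32, FDR 1). Next came members near Gm10234, Atp2c1, Ctsb and Mbnl1. The Ctsb intron had 191 cuts in MF1 and 52, 49 and 50 in the others, so its value of -1.19 rested on MF1 and was 0.07 without it.
Among members higher in HF, the Cd14 promoter, of the lipopolysaccharide co-receptor gene, had 9.41, 17.3, 27.6 and 33.0 CPM from MF1 to HF2 (log2 change 1.17, SE 0.31, FDR 1). The authors' peak there was 466 bp wide in MF1 and 1003 to 1213 bp in the other libraries, and with widths as an offset the value was 0.46. Members near Irf2 (0.68), Peli1 (1.25), Vps37b (0.83) and Clic1 (0.72) followed, each at an FDR of 1. The Peli1 value was 2.41 without MF1 and 0.62 without MF2. The Vps37b value was 0.41 without HF1 and 0.49 with the width offset, and the Clic1 value was 0.04 with that offset. RNA of the nearest genes did not run with these regions. Its log2 changes were -0.54 (Cd14), -0.03 (Irf2), -0.28 (Peli1), -0.22 (Vps37b) and -0.27 (Clic1), with no gene called. Near members lower in HF, RNA changes were 0.02 (Atp2c1), -0.14 (Ctsb) and -0.03 (Mbnl1), beside that of Ptgs1 above.

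**Figure D5:**
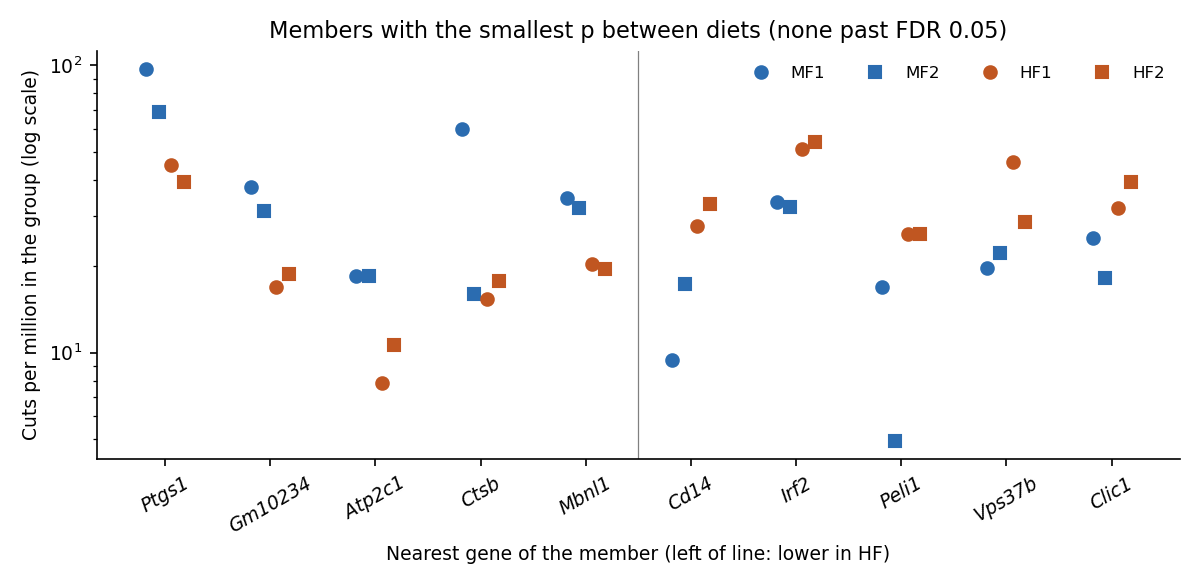
Cuts in the group's nuclei, in CPM (y axis, log scale) in each library for the 10 members with the smallest unadjusted p between diets (x axis, by nearest gene), 5 lower in HF left of the line and 5 higher right of it. MF libraries are blue and HF libraries orange. The 10 were chosen by p, so a separation of the diets among them is no support for a difference. At Ctsb MF1 alone stands at 59.9 while the others lie between 15.35 and 17.75.

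Single libraries decided how many regions were called. Left out in turn, with the lone library of a diet assumed to vary like the other diet, 3 members were called without MF1 (0.0189% of all regions called), 22 without MF2 (0.148%), 12 without HF1 (0.0251%) and 2 without HF2 (0.012%). The members' median log2 change was 0.18 without MF1 and -0.15 without MF2, and changed sign between them. The member near Lox had 109, 4, 87 and 77 cuts in MF1, MF2, HF1 and HF2. That near Plek had 127, 19, 92 and 76. Both were low in MF2 alone, and without MF1 their log2 changes were 4.45 and 2.27.

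In the gene lists no member was called with all 4 libraries. The Ctsb member's log2 change was -1.86 without MF2. None of the 61 surface receptor members and none of the 10 complement members had an edgeR p under 0.05. In the transcription factor list 1 of 49 was lower, in signalling 1 of 79 was higher and 1 lower, and in the lysosome list 2 of 35 were lower, Ctsb and the Mertk promoter (log2 change -0.35, SE 0.16, FDR 1). Such a p was reached by 2.20% of all members and 2.63% of all regions, so these few are not read as a trait of a list. List medians of accessibility lay between -0.14 (complement) and 0.02 (surface receptors). For RNA of the listed genes the medians were -0.24 (surface receptors), -0.20 (complement), -0.22 (transcription factors), -0.11 (signalling) and -0.17 (lysosome), with no gene called. The 3 C1q promoters had values of 0.04, 0.23 and 0.23 with SEs of 0.16 to 0.19. In the classes of ratio, from 4 to 8 up to 32 or more, medians were -0.04, -0.01, -0.01 and 0.04.

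RNA of the same nuclei gave no called gene among 9313 tested by edgeR (0%), with 126 at an unadjusted p under 0.05 (1.35%) and none called by DESeq2. Of the genes nearest to members 2101 were tested, with 28 at an unadjusted p under 0.05 and a median log2 change of -0.077 (0.042 without MF1) beside -0.008 over all genes. Without MF1, MF2, HF1 and HF2 in turn, 36, 105, 63 and 53 of the genes nearest to members passed an unadjusted p of 0.05 (1.68, 4.72, 2.95 and 2.39%), against 2.30, 6.29, 3.52 and 2.67% of all genes. Without MF2, 6 of the 2227 nearest genes tested were called, a smaller share than the 0.848% of all genes. These 6 were all higher in HF, as were most of all genes called without MF2. Their direction is therefore not read as a trait of genes near members. Of the listed genes, Adora3, an adenosine receptor gene, had the only unadjusted p under 0.05 by edgeR (log2 change -0.93, SE 0.40, FDR 1), from 73.4 and 37.7 CPM in MF to 26.4 and 33.0 in HF.

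The share of the group's cuts that fell in members was 18.55 ± 3.16% in MF and 18.3 ± 0.246% in HF (mean ± SD, n = 2), a difference of -0.235 percentage points (exact two-sided permutation p = 1, adjusted over 2 comparisons p = 1). The group's share of barcodes was 7.99 ± 1.76% in MF and 7.03 ± 0.264% in HF, a difference of -0.960 points (exact permutation p = 1, adjusted p = 1). With 2 libraries a diet the smallest p possible was 0.333. In both measures MF1 was the highest library and MF2 the lowest, so that the spread within MF covered both HF libraries. Without MF1 both differences changed sign, to 1.996 points for the share of cuts and 0.2831 points for the share of barcodes. In nuclei passing the quality limits they were -1.136 and -1.553 points. A lower number of microglia and a lower recovery of their nuclei cannot be told apart here.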

How the data were processed

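The authors made the deposited matrices with Cell Ranger ARC 2.0.1 on mm10, per the labels. The deposited GEX values are raw UMI counts per gene and nucleus, and the deposited ATAC values are raw counts of cuts per peak and nucleus (81.07 to 83.14% of entries even, as when both ends of a fragment are counted), with peaks called in each library separately. Coordinates were read as 0-based and are printed 1-based on GRCm38, annotated with GENCODE M21. Neither reads nor fragment files were used, and the alternative by fragments halved each ATAC entry and rounded up.

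Peaks were merged with Python 3.11.15 (pandas 2.3.3, NumPy 2.4.6, SciPy 1.17.1, matplotlib 3.10.9), the nuclei and members taken by the rule, and GEX and ATAC joined by barcode. All barcodes were kept. An alternative kept nuclei within limits adapted from the study's methods (1000 to 70000 ATAC cuts in peaks, where the study limited unique reads, 500 to 7000 genes and mitochondrial UMIs below 2%). The study's limits on nucleosome signal and TSS enrichment were not applied here. CPM scale cuts by all cuts in shared regions, or UMIs by all UMIs, of the nuclei in question. The members and the gene lists were chosen with earlier results of these data known. Named were the 10 members with the largest ratio, with most group cuts and the genes with most members, the member with most group cuts for each listed gene, the 3 regions on either side of the threshold, and the members called or with the 5 smallest p in each direction between diets. Some listed genes are not reported here. Genes with no member and those more open in other classes were named after their values were seen. A nucleus outside the group took the class of which it had most markers, at least 3, without a tie.

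Diets were compared on library sums with edgeR 4.0.16 (quasi-likelihood, TMM, filterByExpr, Benjamini-Hochberg over all regions or genes) in R 4.3.3 with limma 3.58.1. DESeq2 1.42.0 was an alternative. The tests were checked on simulated counts. The p-values measure the spread between these 2 libraries a diet. Single values per library were compared with an exact permutation test.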

Additional observations from a re-analysis of the deposited data

How the results depend on the processing

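The members were stable in number under most settings: 5596 to 5956 with a library left out, 5957 in nuclei passing the quality limits (5762 shared with the main set), 5990 with 4 markers and 6104 against a rest without any marker, but 3788 at a ratio of 8. PU.1 matches were in 17.84% of members over 500 bp and 21.62% over the whole region, against 3.58% and 6.15% of all shared regions. A promoter taken as 2000 bp before to 500 bp after a start was overlapped by 18.4% of members and 15.7% of all shared regions. Between diets, 2 regions were called without the low-count filter, 0 with the width offset and 3 as fragments, where 1 member was called; with a library left out 6 to 69 regions, 2 to 22 members and 7 to 89 genes (most without MF2) were called, and 10 genes without the filter. The cause was not tested. Without MF1 the difference in the share of cuts in members was 1.996 points and in the share of barcodes 0.2831 points, both reversed (ranges -2.467 to 1.996 and -2.202 to 0.2831), and the Ctsb member stood at 0.07 (-1.86 without MF2). Nuclei passing the quality limits gave -1.136 and -1.553 points. For the share of cuts, leaving out the most-cut members or the low-share nuclei, chosen after seeing the data, gave -0.1657 and -0.5597 points.

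With the replicate number as a block 0 regions, 0 members and 0 genes were called. At an unadjusted p under 0.05 the block gave 395 genes, no low-count filter 476 and DESeq2 32, against 126, and for members no filter gave 74 and DESeq2 30, against 130. Same-numbered libraries deviated with a correlation of 0.0938 in ATAC and 0.353 in RNA over 2 pairs, and no source says that the numbers pair them. With 2 libraries a diet, small differences were not detectable, and regions without a peak in every library, Itgam and Gpr34 among them, were not members.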
